A study of Mus musculus with 2 samples.

Results

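Cycling crypt epithelial cells are the dividing cells of the intestinal crypt, and here they are 196 cell barcodes of 16451 deposited for 2 single-cell libraries. They were chosen by their counts: a barcode had 500 or more detected genes, under 25% mitochondrial transcripts, at least 1 transcript of the epithelial gene Epcam, none of the leukocyte gene Ptprc, and 3 or more in all of Top2a, Mki67, Ube2c, Cdk1, Birc5 and Pclaf. Transcripts were counted as unique molecular identifiers (UMIs), each of which stands for 1 captured molecule. Control 1, titled as an M1 control, gave 146 such barcodes and control 2, titled as an M3 control, gave 50. They were set against the epithelial barcodes with 0 UMIs of the 6 genes, called non-cycling here, of which control 1 held 1690 and control 2 held 1228. A further 194 and 97 epithelial barcodes had 1 or 2 UMIs of the 6 genes and entered neither group.

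The series concerns mice with a selective knockdown of the muscarinic acetylcholine receptor M1 or M3. Both libraries analysed here come from control mice on the C57BL/6 background, from the proximal small intestine, and no agent, age or sex is given in the labels. What genetic elements the M1 and M3 controls may carry is not stated. A villus-rich fraction released in EDTA and a crypt-rich fraction released with TrypLE, a trypsin-like enzyme, were pooled before 10x Genomics 3' libraries were made. Whether separate animals gave the libraries is not stated. The p-values below set a group difference only against how it varies between the 2 libraries, with spread shared across genes. That variation may be technical. The type of control (M1 or M3) and the library cannot be told apart.

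Crypts hold stem cells marked by Lgr5 and Olfm4 at their base and transit-amplifying progenitors above them, which divide a few times before their daughters leave for the villus as absorptive or secretory cells. In S phase the genome is copied by a machinery that includes the MCM helicase, the clamp PCNA and the enzymes of deoxynucleotide synthesis, most of whose genes are controlled by E2F factors. In G2 and mitosis the cyclin B and CDK1 kinase, the condensins, the spindle and the kinetochore act in turn, and the ubiquitin ligase APC/C, with the E2 enzyme encoded by Ube2c, ends mitosis by marking cyclins for destruction. Genes of G2 and mitosis often carry CCAAT boxes, bound by NF-Y, and a cell cycle homology region (CHR), bound by DREAM and MuvB complexes, in their promoters.

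The promoters of 4 of the 6 genes are shown, picked after their matches were seen, to set genes with both CCAAT and CHR letters beside Pclaf, which has no CHR letters. They are RefSeq sequences of build GRCm38.p6 from 250 bases before to 50 after the annotated start, each written 5' to 3' on the gene's own strand. Top2a, encoding topoisomerase II alpha, lies on the minus strand at chr11:99024140-99024439, Ube2c on the plus strand at chr2:164769679-164769978, Cdk1 on the minus strand at chr10:69352863-69353162, and Pclaf, encoding a PCNA-binding protein of S phase, on the plus strand at chr9:65890073-65890372. Capitals mark CCAAT or its reverse ATTGG and the CHR letters TTTGAA or TTCGAA, also read on the other strand as TTCAAA.
Top2a: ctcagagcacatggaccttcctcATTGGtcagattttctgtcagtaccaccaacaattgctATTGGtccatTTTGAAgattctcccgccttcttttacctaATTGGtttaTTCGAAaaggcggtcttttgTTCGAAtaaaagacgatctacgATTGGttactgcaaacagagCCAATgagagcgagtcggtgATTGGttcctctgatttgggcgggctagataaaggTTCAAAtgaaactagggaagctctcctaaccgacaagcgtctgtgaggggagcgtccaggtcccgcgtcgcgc
Ube2c: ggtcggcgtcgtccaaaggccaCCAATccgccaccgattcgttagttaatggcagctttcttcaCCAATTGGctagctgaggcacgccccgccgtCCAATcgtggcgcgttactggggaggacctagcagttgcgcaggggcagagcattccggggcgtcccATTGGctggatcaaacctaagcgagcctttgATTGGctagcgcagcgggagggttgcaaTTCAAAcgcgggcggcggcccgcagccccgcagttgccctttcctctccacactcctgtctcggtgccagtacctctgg
Cdk1: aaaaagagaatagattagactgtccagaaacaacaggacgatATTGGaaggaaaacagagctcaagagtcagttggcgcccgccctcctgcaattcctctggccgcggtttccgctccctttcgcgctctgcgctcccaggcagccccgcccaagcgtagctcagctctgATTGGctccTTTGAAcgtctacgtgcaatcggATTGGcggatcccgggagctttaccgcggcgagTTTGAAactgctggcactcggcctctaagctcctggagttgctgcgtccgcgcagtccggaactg
Pclaf: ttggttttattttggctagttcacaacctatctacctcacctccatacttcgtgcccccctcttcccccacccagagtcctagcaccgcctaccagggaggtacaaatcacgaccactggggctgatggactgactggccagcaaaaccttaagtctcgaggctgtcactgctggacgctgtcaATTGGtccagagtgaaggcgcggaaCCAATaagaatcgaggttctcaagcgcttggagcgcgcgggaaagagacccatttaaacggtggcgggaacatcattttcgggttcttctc

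The Top2a window held 6 CCAAT matches and 4 CHR matches, the Ube2c window 6 and 1, and the Cdk1 window 3 and 2. In Ube2c, 2 CCAAT matches on opposite strands overlap. The Pclaf window held 2 CCAAT matches, no CHR letters and 1 of the E2F words TTTGGCGC, TTTCCCGC, TTTGCCGC and TTTCGCGC, and Cdk1 held 1 E2F word as well; E2F words are not in capitals. Of the other two genes, Mki67 had 3 CCAAT and 2 CHR matches and Birc5 had no match to any of these words. Each motif was searched on both strands. Among the promoters of a G2/M gene list, of which 42 of 49 genes matched the RefSeq table, 72.3% held CHR letters, against 17.6% for an S-phase list with 31 of 43 genes matched, and 19.2% of all 32851 promoters. The E2F words stood in 4.26% of G2/M-list promoters, 35.3% of S-list promoters and 2.26% of all promoters. CCAAT was frequent in both lists, at 74.5% for G2/M and 67.6% for S, against 37.4% of all promoters. CCAAT and CHR letters occurred together in 57.4%, 11.8% and 7.52%. A match describes letters in this window and is neither a binding site nor a cause of any level below.

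The 2 libraries held 54451793 and 36139325 UMIs over 9342 and 7109 barcodes, of which 7120 and 4742 passed the limits on genes and mitochondrial UMIs, and 17 barcode sequences occurred in both libraries, 1 of them a cycling barcode. Cycling barcodes were 7.19% of the 2030 epithelial barcodes of control 1 (exact binomial 95% interval 6.11% to 8.40%) and 3.64% of 1375 in control 2 (2.71% to 4.77%). With every barcode thinned to 2000 UMIs the shares were 5.64% and 2.47%. Among barcodes with villus-tip genes, 4.70% of 213 in control 1 (2.27% to 8.46%) and 1.75% of 228 in control 2 (0.480% to 4.43%) also met the rule. The median depth of the villus-tip barcodes was 4949 and 7405 UMIs, against 3412 and 3548 UMIs over all epithelial barcodes. They held 778 and 389 UMIs of the 6 genes in all, and whether they are cells that have left the cycle was not tested. The villus-tip barcodes are part of the epithelial barcodes and have a higher median depth, so they give no rate of false members. The shares among epithelial barcodes were not tested against theirs and are not read as a share of dividing cells. Intervals cover counting error only. After thinning, 2.44% and 1.02% of villus-tip barcodes met the rule.

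Cycling barcodes were of different depths. In control 1 they had a median of 5266 UMIs (range 794 to 306942) and in control 2 a median of 5766 UMIs (911 to 101010), while non-cycling barcodes had medians of 3076 and 3400 UMIs. In control 1, 30 cycling barcodes with 20000 or more UMIs held 83.2% of all UMIs of the group, and in control 2, 14 such barcodes held 83.4%, so summed levels mostly describe these deep barcodes. Their median mitochondrial share was 5.34% and 5.97%, and Malat1, a nuclear RNA, had a median of 90.5 and 184 UMIs in them. The 116 and 36 shallower cycling barcodes had a median mitochondrial share of 0.133% and 0.183%, with a median of 1 Malat1 UMI in each library, and 49 and 15 of them had none. The same split was present in non-cycling barcodes, with a median mitochondrial share of 7.89% and 8.96% at 20000 or more UMIs and of 0.167% and 0.205% below. The part of RNA quality in the results was not tested; the comparisons were also run within each depth class.

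**Figure D1:**
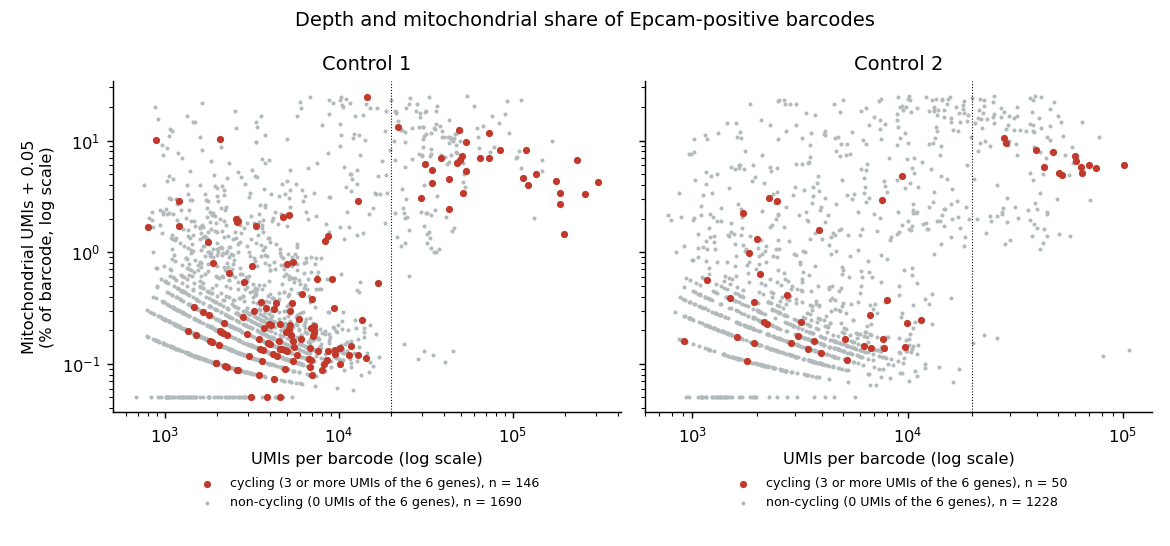
UMIs per barcode (log scale) against the mitochondrial share of UMIs plus 0.05 (percent, log scale), with 1 point per barcode, control 1 on the left and control 2 on the right; the dotted line is at 20000 UMIs. Cycling barcodes (red) lie in both depth classes, with median mitochondrial shares of 5.34% and 5.97% right of the line and 0.133% and 0.183% left of it.

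The label was checked against marker genes. All 7 epithelial markers were detected in cycling barcodes and summed to 6140 and 6992 CPM (UMIs per 1000000 UMIs of the group), against 5765 and 6212 CPM in non-cycling barcodes. The 6 crypt stem markers summed to 1460 and 1904 CPM, against 81.5 and 43.9 CPM in non-cycling barcodes, and 52.1% and 70.0% of cycling barcodes had at least 1 UMI of them. Enterocyte markers summed to 9873 and 2782 CPM, against 52040 and 36710 CPM. The 13 T or NK cell markers summed to 193 and 204 CPM, against 552 and 539 CPM, while barcodes of T cells had 49640 and 40450 CPM, and all 3 fibroblast markers were at 0. Red-cell markers summed to 394 and 10540 CPM, against 5325 and 8370 CPM in non-cycling barcodes. The sums thus held the epithelial and crypt markers that the label calls for, while single members also held much RNA of other classes. In control 2, 2 members drew 45.7% and 11.6% of their UMIs from red-cell markers. In control 1, 3 members drew 21.4%, 14.1% and 10.3% from goblet markers and 1 drew 11.96% from enteroendocrine markers. The comparisons were also run without barcodes of this kind. Paneth markers reached 49460 CPM in cycling barcodes of control 1, against 13300 CPM in non-cycling ones, and 360 CPM in control 2, against 21050 CPM. In control 1 they came from 2 deep barcodes in which these markers were 42.7% and 48.6% of all UMIs.

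Depth also let barcodes into the group with few UMIs of the 6 genes relative to their size. In control 1, 10 members, and in control 2, 3 members, had under 2 UMIs of the 6 genes per 10000; all had 20000 or more UMIs, and together they held 37.8% and 17.4% of the UMIs of cycling barcodes. A barcode of control 1 with 259561 UMIs, for example, had 5 UMIs of the 6 genes beside 528 UMIs of Sis, the brush-border enzyme sucrase-isomaltase, and 2488 of Reg1, a secreted lectin of enterocytes. In these members Sis had 1661 and 3142 CPM, against 107 and 138 CPM in the other cycling barcodes. Reg1 had 4702 and 11370 CPM in them, against 166 and 439 CPM. Members at the limit of 3 UMIs numbered 17 and 7, with a median of 5.81 and 4.78 such UMIs per 10000 and crypt stem markers at 191 and 48.7 CPM. The 37 and 17 barcodes just outside it, with 2 UMIs, had medians of 4.76 and 1.59 per 10000 and crypt stem markers at 1429 and 337 CPM. Enterocyte markers summed to 47100 and 5889 CPM in the members at the limit, against 33900 and 16270 CPM in those just outside it. In control 1 the members at the limit thus held much enterocyte RNA and little crypt RNA.

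The 6 genes that chose the barcodes are given as a description, with no test. Ube2c had 299 and 363 CPM and at least 1 UMI in 79.5% and 70.0% of members. Top2a, which untangles sister DNA, had 219 and 467 CPM and was seen in 60.3% and 82.0% of members. Birc5, which encodes survivin of the chromosomal passenger complex, had 212 and 216 CPM and was seen in 78.1% and 72.0%. Pclaf had 207 and 262 CPM and was seen in 71.2% and 66.0%. Cdk1, the mitotic kinase, had 113 and 162 CPM and was seen in 57.5% and 68.0%. Mki67, which encodes the surface layer of mitotic chromosomes known as Ki-67, had 109 and 184 CPM and was seen in 34.2% and 46.0%, the lowest share of the 6 in both libraries. Per barcode, the sum of the 6 genes had a median of 9 UMIs in control 1 and 9.5 in control 2, with a highest value of 347 and 267.

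A shallow barcode needs a higher rate of the 6 genes than a deep one to hold 3 UMIs of them, so the rule itself bears on how their levels vary with depth, and nothing is read from it. Ube2c had 220 and 331 CPM in members of 20000 or more UMIs, against 692 and 525 CPM in shallower ones, and Top2a had 181 and 396 CPM, against 408 and 819 CPM. Mki67 had 116 and 185 CPM in the deeper members, against 71.8 and 179 CPM in the shallower ones. Levels of different genes are not compared with each other here.

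The other cell cycle genes were described by their roles, with no test for those of the S and G2/M lists because they belong to the program that chose the barcodes. All 43 S-list genes and 47 of 49 G2/M-list genes had more CPM in cycling than in non-cycling barcodes of both libraries, with a median log2 ratio of CPM plus 1 of 3.06 and 3.40 for the S list and of 3.71 and 4.27 for the G2/M list. Among origin licensing genes, Mcm5 of the replicative helicase had 39.6 and 52.1 CPM in cycling barcodes, against 1.28 and 0.227 CPM. Mcm6 had 62.0 and 57.4 CPM, against 9.98 and 7.14 CPM, and Cdc6, which loads the helicase, had 7.58 and 11.7 CPM, against 1.02 and 1.81 CPM. Replication factors followed: Pcna had 134 and 141 CPM, against 41.3 and 39.7 CPM, and Tyms, which makes thymidylate, had 108 and 115 CPM, against 4.69 and 3.85 CPM. Of these 5 genes Pcna showed the smallest ratio in both libraries.

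Genes of the spindle and of mitotic exit were described in the same way. Nusap1, a spindle protein, had 90.4 and 144 CPM in cycling barcodes, against 0.426 and 0.453 CPM. Aurkb, the kinase partner of Birc5, had 34.2 and 54.2 CPM, against 0.0853 and 0.113 CPM, each of these from 1 UMI. Cdc20, the activator of APC/C, had 68.2 and 75.4 CPM, against 0.426 and 0.227 CPM, and Hmgb2, a chromatin protein, had 947 and 1349 CPM, against 51.3 and 35.1 CPM. Hmgb2 was seen in 97.3% and 98.0% of members, more than any of the 6 genes themselves.

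**Figure D2:**
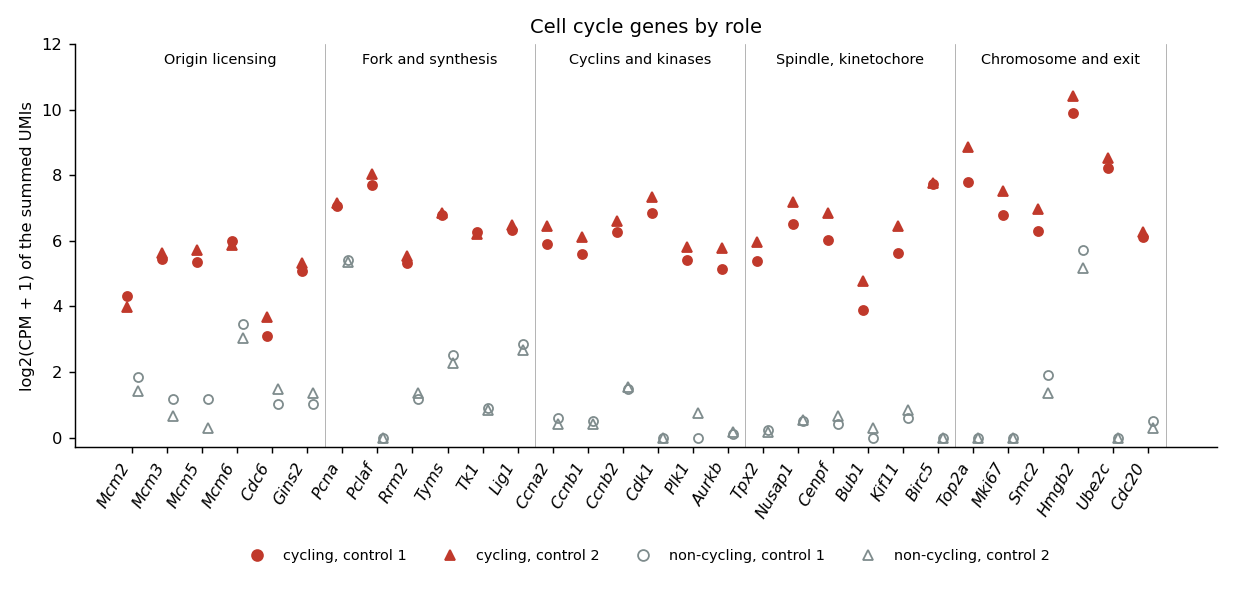
Level of 30 cell cycle genes as log2(CPM + 1) of the summed UMIs, grouped by role, in cycling (red, filled) and non-cycling (grey, open) barcodes of control 1 (circles) and control 2 (triangles). Every gene lies higher in cycling barcodes of both libraries; the rule fixes this for Top2a, Mki67, Ube2c, Cdk1, Birc5 and Pclaf, and Pcna keeps 41.3 and 39.7 CPM in non-cycling barcodes.

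Outside the genes that chose the barcodes, 11835 genes were tested between cycling and non-cycling barcodes on the UMIs summed per library, with edgeR's quasi-likelihood test and library as a block. At a Benjamini-Hochberg adjusted p of 0.05, 2473 genes (20.9%) rose in cycling barcodes and 2482 (21%) fell, and the median log2 fold change over all tested genes was -0.034. List counts near these shares are not read as results about the list. Most non-cycling barcodes are villus cells, so crypt against villus and cycling against non-cycling cannot be told apart in this comparison. Of replication genes not on the S list, 24 of 27 tested rose and none fell, with a median log2 fold change of 2.81; of mitosis genes not on the G2/M list, 36 of 38 rose and none fell, with a median of 5.18. These belong to the same program as the 6 genes, so their direction is no independent finding. The same holds for cell cycle genes given below, such as E2f1, Foxm1, Mybl2, Brca1, Neil3, Esco2 and the replication-dependent histones. Tk1, thymidine kinase, had 76.6 and 72.3 CPM, against 0.853 and 0.793 CPM (log2 fold change 6.18 ± 0.388 SE, edgeR adjusted p 3.29e-08). Mcm3, a helicase subunit, had 42.4 and 48.9 CPM, against 1.28 and 0.567 CPM (5.26 ± 0.40). Pbk, a mitotic kinase, had 59.5 and 93.5 CPM, against 0.341 and 0.113 CPM (7.84 ± 0.472), and Ccna2, cyclin A2, had 59.2 and 87.1 CPM, against 0.512 and 0.340 CPM (6.98 ± 0.422).

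Genes that control entry into the cycle split. Of 26 tested, 14 rose, 5 fell and 7 did not pass, with a median of 1.11. Myc, the growth-promoting factor downstream of Wnt, had 21.6 and 29.8 CPM in cycling barcodes, against 1.02 and 1.02 CPM (4.29 ± 0.439, edgeR adjusted p 1.85e-06). Ccnd1, cyclin D1, had 53.6 and 77.6 CPM, against 5.37 and 3.17 CPM (3.60 ± 0.342), and its partner kinase gene Cdk6 had 66.2 and 84.0 CPM, against 7.25 and 5.55 CPM (3.23 ± 0.318). Ccnd2, Ccne1, Cdk2, Cdk4, E2f1, E2f2, Mybl2 and Foxm1, which drive the cycle, were among those that rose, together with E2f7, Rbl1 and the inhibitor Cdkn2c. The 5 that fell were Cdkn1a, which encodes the inhibitor p21, the retinoblastoma family genes Rb1 and Rbl2, and the antiproliferative genes Btg1 and Tob1; these names were chosen after their values were seen.

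Crypt genes rose with the cycle genes. The 5 genes later used to mark crypts, Olfm4, Lgr5, Slc12a2, Ascl2 and Smoc2, all rose, with a median of 3.63. Olfm4 had 1081 and 1424 CPM in cycling barcodes, against 42.0 and 11.7 CPM (5.49 ± 0.574, edgeR adjusted p 2.31e-06). Ascl2, the Wnt-driven stem cell factor, had 33.1 and 20.2 CPM, against 2.56 and 1.02 CPM (3.63 ± 0.404), and Smoc2, a secreted protein of the stem cell zone, had 53.0 and 118 CPM, against 6.39 and 2.15 CPM (3.94 ± 0.457). Of 28 further crypt stem and Wnt genes, 16 rose, 2 (Tcf7l2 and Sp5) fell and 10 did not pass. Kcnq1, a potassium channel, had 106 and 131 CPM, against 9.29 and 4.19 CPM (3.88 ± 0.358). Aqp4, a water channel, had 22.2 and 32.9 CPM, against 1.19 and 0.113 CPM (4.92 ± 0.554), and Gkn3, gastrokine 3, had 58.7 and 54.2 CPM, against 5.80 and 0.113 CPM (4.25 ± 0.555). Below 20000 UMIs, with fewer genes tested, 8 of 23 of this list rose and 2 fell.

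Of 9 Notch pathway genes 3 rose (Notch1, Notch2 and Hes1), 1 fell (Dll4) and 5 did not pass. Hes1, the repressor through which Notch holds back secretory fate, had 101 and 96.7 CPM, against 28.6 and 18.9 CPM (1.78 ± 0.296, edgeR adjusted p 1.88e-04). Of 15 secretory lineage factors 3 rose and 4 fell. Over all 11835 tested genes 20.9% rose and 21% fell, so the Notch and secretory counts are not read as results about these lists. Sox4 had 101 and 126 CPM, against 18.5 and 10.8 CPM (2.67 ± 0.323). Atoh1, which commits cells to the secretory lineages, had 8.70 and 1.06 CPM, against 23.0 and 65.5 CPM (-2.71 ± 0.538, edgeR adjusted p 7.73e-04). That call reversed to 0.85 when barcodes with 5% or more of their UMIs from markers of goblet, Paneth, enteroendocrine, blood or other classes were left out of both groups, an alternative chosen after seeing the data that kept 140 and 47 cycling and 1551 and 999 non-cycling barcodes.

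Growth genes rose together against the mostly villus non-cycling barcodes. All 25 ribosome biogenesis genes rose, with a median of 2.89. Mybbp1a, a nucleolar protein, had 42.9 and 91.4 CPM, against 3.58 and 2.49 CPM (4.02 ± 0.366, edgeR adjusted p 6.13e-07), Gar1 of the H/ACA particles that modify ribosomal RNA had 55.0 and 93.5 CPM, against 4.35 and 2.95 CPM (3.97 ± 0.352), and Gnl3, nucleostemin, had 66.0 and 110 CPM, against 6.65 and 3.85 CPM (3.71 ± 0.361). Of 80 cytosolic ribosomal protein genes 78 rose and none fell, with a median of 2.01; without the library block 19 did. These genes have near-identical processed copies, so their single counts are uncertain. In the same direction, 20 of 23 nucleotide synthesis genes rose. Shmt1, which feeds folate carbon into thymidylate, had 63.1 and 78.6 CPM, against 4.18 and 0.906 CPM (4.56 ± 0.431), Gart of purine synthesis had 40.7 and 52.1 CPM, against 2.90 and 2.04 CPM (3.89 ± 0.344), and Impdh2 of guanine nucleotide synthesis had 175 and 187 CPM, against 17.0 and 6.68 CPM (3.74 ± 0.362).

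Chromatin genes rose as well, 22 of 25 tested, with none lower and a median of 1.80. Lmnb1, lamin B1, had 72.4 and 116 CPM, against 6.39 and 3.85 CPM (3.85 ± 0.356, edgeR adjusted p 6.86e-07), Hmgn1, a nucleosome-binding protein, had 210 and 226 CPM, against 22.1 and 8.61 CPM (3.65 ± 0.367), and Ptma, prothymosin alpha, had 2475 and 3403 CPM, against 244 and 137 CPM (3.68 ± 0.554). Of 48 replication-dependent histone genes 39 rose and 2 fell; their sequences are near-identical, and most of their mRNA has no poly(A) tail, so these libraries see only part of it. Of 22 DNA damage and repair genes 16 rose and 4 fell. Brca1 of homologous recombination had 17.1 and 27.6 CPM, against 0.938 and 1.36 CPM (3.94 ± 0.448), the checkpoint kinase gene Atr had 16.8 and 24.4 CPM, against 2.30 and 0.906 CPM (3.29 ± 0.471), and Chek2 had 22.7 and 27.6 CPM, against 2.73 and 3.40 CPM (2.74 ± 0.380). The 4 that fell were Mdm2, Bbc3, Gadd45a and Gadd45b.

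Genes of finished cells fell. Of 35 enterocyte genes 32 fell and none rose, with a median of -2.41; Sis, Reg1 and Reg3g were the 3 that did not pass. Ada, adenosine deaminase of the villus tip, had 29.8 and 26.6 CPM in cycling barcodes, against 823 and 1896 CPM (-5.74 ± 0.584, edgeR adjusted p 1.76e-06). Apoa4, an apolipoprotein of chylomicrons, had 542 and 74.4 CPM, against 5732 and 6261 CPM (-5.17 ± 0.869), and Apoc3 had 216 and 35.1 CPM, against 2013 and 1538 CPM (-4.58 ± 0.653). Of 19 absorptive transcription factors 7 fell and none rose, while scaling by total UMIs alone gave 5 lower and 2 higher. Klf4, a factor of differentiated cells, had 49.7 and 17.0 CPM, against 255 and 390 CPM (-3.59 ± 0.491), Creb3l3, a regulator of lipid genes, had 106 and 29.8 CPM, against 266 and 272 CPM (-2.47 ± 0.447), and Maf had 131 and 71.2 CPM, against 436 and 267 CPM (-2.12 ± 0.356). Hnf4a, Hnf4g, Cdx1, Cdx2 and Gata4 were among the 12 that did not pass.

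Secretory products fell, and the goblet calls were lost without barcodes rich in RNA of other classes. Of 7 goblet genes 5 fell, and of 7 enteroendocrine genes 6 fell. Zg16, a mucus lectin, had 1708 and 368 CPM, against 23410 and 59690 CPM (-5.86 ± 1.22, edgeR adjusted p 0.00114), Clca1 had 160 and 56.3 CPM, against 1427 and 5592 CPM (-5.16 ± 0.873), and Fcgbp had 779 and 174 CPM, against 5314 and 17510 CPM (-5.00 ± 1.05). Without barcodes rich in RNA of other classes the 3 values were -0.46, 0.33 and -0.12, none of them called, and goblet genes gave 1 higher and 0 lower call of 7. Zg16, Clca1 and Fcgbp are among the markers by which those barcodes were left out. The loss therefore follows from the choice, and no conclusion is drawn from it. Chga, chromogranin A of hormone cells, had 7 UMIs in control 1 and 0 in control 2 in cycling barcodes, or 1.96 and 0 CPM, against 202 and 137 CPM (-7.24 ± 0.515). Of 10 Paneth genes 2 fell and 8 did not pass, with the 2 Paneth-rich members of control 1 among the cycling barcodes. Over all tested genes 21% fell, so this count is not read as a result about Paneth genes.

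**Figure D3:**
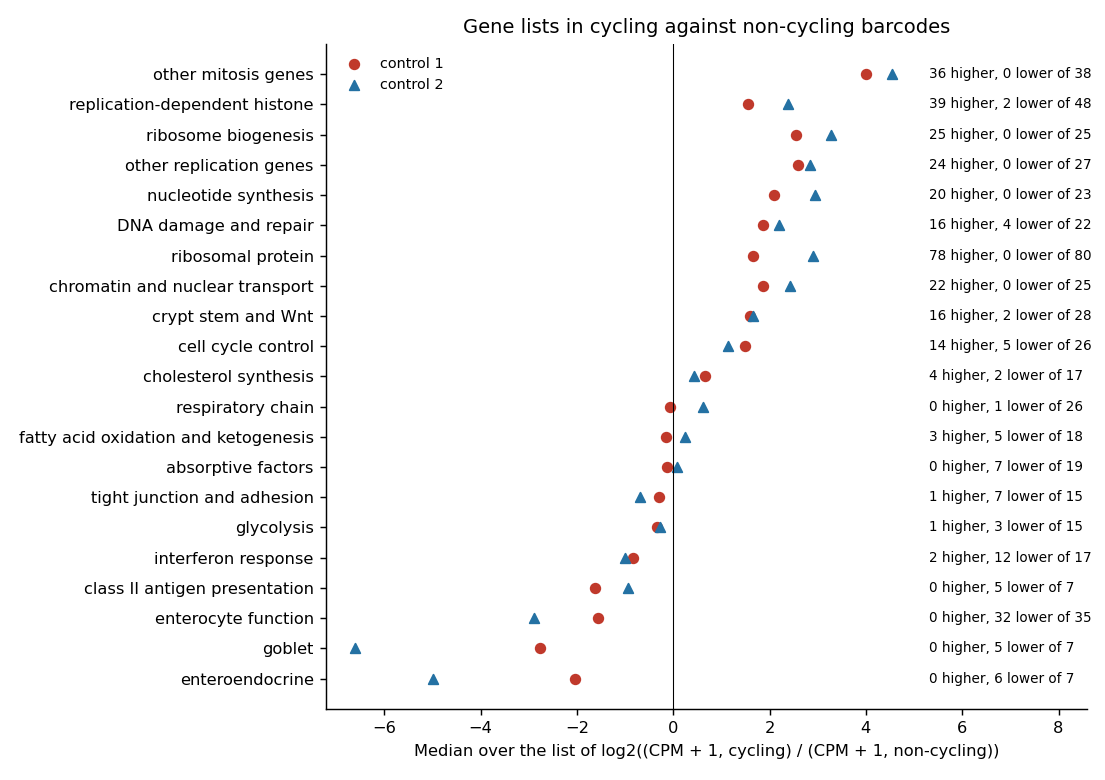
Median over each gene list of the log2 ratio of CPM plus 1, cycling over non-cycling, in control 1 (red circles) and control 2 (blue triangles), with the number of genes that rose or fell by edgeR's quasi-likelihood test at an adjusted p of 0.05 on the right. Mitosis genes lie highest and goblet genes lowest in both libraries. Goblet genes keep no lower call without barcodes rich in RNA of other classes, a choice made in part with goblet markers themselves.

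Surface, signal and defence genes changed in both directions. Of 17 interferon response genes 12 fell and 2 rose. Isg15, a ubiquitin-like protein, had 4.49 and 4.25 CPM, against 105 and 67.2 CPM (-4.62 ± 0.387, edgeR adjusted p 2.85e-07), and Ifit1 had 3.93 and 2.12 CPM, against 54.6 and 33.2 CPM (-4.05 ± 0.397), while the membrane protein gene Ifitm2 had 306 and 359 CPM, against 22.2 and 9.29 CPM (4.21 ± 0.393). Of 7 class II antigen presentation genes 5 fell, among them H2-Aa with 38.5 and 34.0 CPM, against 221 and 179 CPM (-2.76 ± 0.332). Of 21 ErbB and growth factor genes 8 fell and 1 rose. Nrg1, the ErbB ligand neuregulin 1, had 0 UMIs in cycling barcodes of both libraries, against 832 and 601 UMIs, and was at least 105-fold lower with both libraries summed and a floor of 3 UMIs over that sum. Igf1r, the insulin-like growth factor receptor, was the gene that rose, with 24.98 and 40.4 CPM, against 3.07 and 2.04 CPM (3.28 ± 0.385); below 20000 UMIs it was not called.

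Of 15 tight junction and adhesion genes 7 fell and 1 rose. The claudins Cldn4 and Cldn2 moved in opposite directions: Cldn4, a barrier claudin, had 2.81 and 5.31 CPM, against 54.1 and 150 CPM (-4.78 ± 0.396, edgeR adjusted p 2.54e-07), and Cldn2, which forms cation pores, had 34.5 and 73.3 CPM, against 2.22 and 3.29 CPM (3.90 ± 0.332). Of 7 polyamine genes 3 rose and 2 fell, and the spermidine synthase gene Srm had 20.5 and 35.1 CPM, against 1.45 and 1.02 CPM (4.06 ± 0.436). Among secreted crypt and Reg genes, Dmbt1, a mucosal scavenger protein, had 786 and 1846 CPM, against 50.8 and 22.8 CPM (4.83 ± 0.574), and Reg4 had 53.6 and 2.12 CPM, against 789 and 386 CPM (-5.22 ± 0.631). Cycling barcodes of control 1 thus had more Reg4 than those of control 2, and both had less than the non-cycling barcodes.

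Outside the lists, 6 of the genes of largest change that met the same conditions were as follows. Neil3, a DNA glycosylase, had 21.3 and 35.1 CPM, against 0.0853 and 0.340 CPM (6.70 ± 0.560, edgeR adjusted p 2.75e-07). Esco2, which acetylates cohesin in S phase, had 23.9 and 44.6 CPM, against 0.341 and 0.227 CPM (6.39 ± 0.503), and Fgfbp1, a carrier of fibroblast growth factors, had 34.2 and 47.8 CPM, against 0.767 and 0.340 CPM (5.77 ± 0.443). Slc34a2, a sodium-phosphate cotransporter, had no UMI in cycling barcodes, against 269 and 624 UMIs, and was at least 65.2-fold lower with both libraries summed and a floor of 3 UMIs over that sum. Ly6m had 1.68 and 1.06 CPM, against 187 and 308 CPM (-7.40 ± 0.490), and Clca4a had 2.81 and 6.38 CPM, against 267 and 1060 CPM (-7.23 ± 0.525).

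To use a reference that holds crypt RNA, cycling barcodes were also set against non-cycling crypt barcodes, with 0 UMIs of the 6 genes and 3 or more UMIs of Olfm4, Lgr5, Slc12a2, Ascl2 and Smoc2. Control 1 held 41 and control 2 held 22 of these crypt barcodes. All cycling barcodes entered this comparison, with no limit on their crypt gene UMIs. The second group was uneven: goblet markers summed to 6250 and 979 CPM in cycling barcodes, against 70640 and 328400 CPM in non-cycling crypt barcodes. Of 7471 genes 13 (0.174%) rose in cycling barcodes and 11 (0.147%) fell, 0.321% in all, by edgeR's quasi-likelihood test; DESeq2 called 0.12% higher and 1.07% lower, and 818 genes had an unadjusted p under 0.05. The genes that rose were led by mitotic ones. These belong to the same program as the 6 genes that chose both groups, so their direction is no independent finding. Called genes of 20 CPM or more and of 1 direction in both libraries included none from the ribosome biogenesis, nucleotide synthesis or chromatin lists. None was from the crypt stem and Wnt list either. So few calls do not show that those lists were alike between the groups. Smc2 of condensin had 276 and 116 UMIs, against 0 and 0 (at least 29.2-fold higher with both libraries summed and a floor of 3 UMIs over that sum, edgeR adjusted p 0.0371). Ccna2 had 211 and 82 UMIs, against 0 and 0 (at least 21.9-fold higher on the same floor). Knl1 of the kinetochore had 116 and 53 UMIs, against 0 and 0 (at least 12.6-fold higher), and Pbk had 212 and 88 UMIs, against 1 and 0. Those that fell included Cldn4, with 2.81 and 5.31 CPM, against 55.1 and 318 CPM (-5.31 ± 0.816), Rgs2, a regulator of G protein signalling, with 4.21 and 3.19 CPM, against 98.6 and 330 CPM (-5.69 ± 0.878), and Ido1, which degrades tryptophan, with 1.12 and 14.9 CPM, against 86.9 and 1483 CPM (-6.72 ± 1.21). Without the library block edgeR called no gene, with 958 at an unadjusted p under 0.05 and 89 called by DESeq2 with the block. Leaving out barcodes rich in RNA of other classes kept 35 and 7 non-cycling crypt barcodes. In that fit 2 genes were called, both higher in cycling barcodes, and no lower call remained.

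Each cycling barcode was then placed by its UMIs of the S list and of the G2/M list, neither of which holds any of the 6 genes. More S-list than G2/M-list UMIs were found in 21 barcodes of control 1 and 5 of control 2, more G2/M-list UMIs in 123 and 44, and equal numbers in 2 and 1. The S part was 14.6% (9.26% to 21.4%) and 10.2% (3.40% to 22.2%) of the members that could be placed. The split is a cut through a range and not 2 types of cell: the median member drew 20.0% and 22.4% of its list UMIs from the S list, with a range of 0% to 73.5% in control 1 and 0% to 72.7% in control 2, and 19 and 7 members lay between 40% and 60%. With scanpy's phase scores, which set each list against other genes of like level, 30.1% and 32.0% of members counted as S phase, so the size of the S part depends on how it is scored. Over all members together the S list gave 29.0% and 26.2% of list UMIs.

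Single deep members show both ends of this range. In control 1, a barcode of 83900 UMIs had 87 S-list and 954 G2/M-list UMIs with 312 UMIs of the 6 genes, and one of 72934 UMIs had 114 and 942 with 248. At the other end of the range, a barcode of 34196 UMIs had 183 S-list and 72 G2/M-list UMIs and 42 of the 6 genes, and one of 64991 UMIs with 339 and 166 and 41. In control 2, a barcode of 101010 UMIs had 120 S-list and 1044 G2/M-list UMIs with 267 of the 6 genes, and one of 64489 UMIs had 379 and 258 with 149. The deepest member, with 306942 UMIs in control 1, had 799 S-list and 893 G2/M-list UMIs and 236 of the 6 genes.

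**Figure D4:**
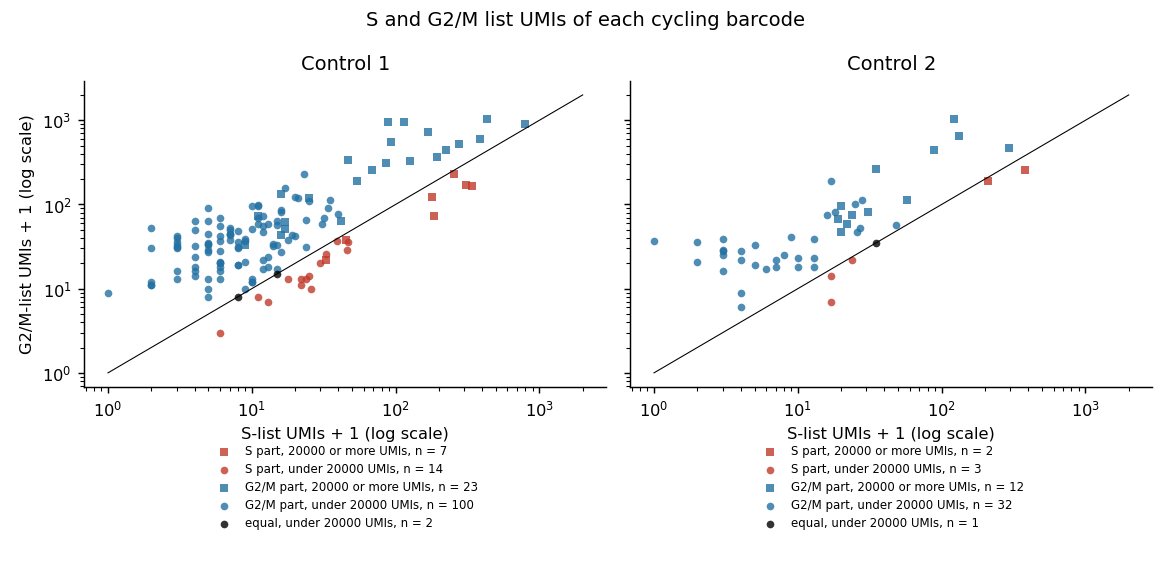
S-list UMIs plus 1 against G2/M-list UMIs plus 1 (both log scale) of each of the 196 cycling barcodes, control 1 on the left and control 2 on the right, with the S part in red, the G2/M part in blue, equal counts in black, and squares for 20000 or more UMIs. The points form a band with 21 and 5 barcodes below the line of equal counts and 123 and 44 above it, and no gap at the line.

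The genes that made the split are described first. Hells, a chromatin remodeller of replicating DNA, had 189 and 330 CPM in the S part, against 40.5 and 48.4 CPM in the G2/M part. Pcna had 243 and 289 CPM, against 113 and 114 CPM, and Cdc6 had 28.7 and 47.1 CPM, against 3.95 and 5.10 CPM. Tyms had 107 and 215 CPM, against 108 and 93.1 CPM, and so did not differ in control 1. In the other direction Nusap1 had 5.74 and 20.2 CPM, against 105 and 166 CPM, Ccnb2, cyclin B2, had 13.4 and 13.4 CPM, against 85.4 and 114 CPM, and Cenpa, the centromeric histone, had 15.3 and 20.2 CPM, against 107 and 129 CPM. Of the 6 genes, Ube2c had 34.4 and 60.5 CPM in the S part, against 345 and 423 CPM, and Pclaf had 281 and 612 CPM, against 193 and 182 CPM. Top2a had 170 and 430 CPM, against 227 and 470 CPM. Mki67 had 63.1 and 256 CPM, against 117 and 168 CPM, opposite orders in the 2 libraries.

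Of 7003 other genes tested between the parts, 217 (3.1%) rose in the S part and 322 (4.6%) fell, 7.7% in all, by edgeR's quasi-likelihood test with library as a block. DESeq2 called 0.214% higher and 0.828% lower, and without that block 1 gene was called. The S part of control 2 is 5 barcodes and in control 1 the 5 deepest of 21 held 73.8% of its UMIs. Of 22 further replication genes 11 rose and none fell, with a median of 1.26. These and the further mitosis genes belong to the programs of the lists that made the split, so their direction is no independent finding. Mcm3 had 136 and 148 CPM in the S part, against 26.0 and 28.1 CPM in the G2/M part (2.55 ± 0.313, edgeR adjusted p 2.90e-05). Dnmt1, which copies DNA methylation onto new strands, had 89.9 and 108 CPM, against 29.7 and 24.2 CPM (1.96 ± 0.338), and Prim2 of the primase had 47.8 and 47.1 CPM, against 13.2 and 10.2 CPM (2.14 ± 0.488). Of 36 further mitosis genes 7 fell and 2 rose. Ccnb1, cyclin B1, had 5.74 and 13.4 CPM, against 54.4 and 79.1 CPM (-2.80 ± 0.533, edgeR adjusted p 0.00259). Cdkn3, a phosphatase of CDKs, had 2 and 1 UMIs, against 142 and 31 UMIs, and Kif20a, a motor of cytokinesis, had 1 and 0 UMIs, against 50 and 26 UMIs.

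Genes of other groups also rose in the S part. Those that act in replication belong to the program of the S list, so their direction is no independent finding either. Of 20 cell cycle control genes 6 rose, among them Ccne1, cyclin E1, with 28.7 and 40.4 CPM, against 6.26 and 2.55 CPM (2.82 ± 0.611, edgeR adjusted p 0.00721), and Mybl2 with 21.0 and 80.7 CPM, against 5.60 and 10.2 CPM (2.52 ± 0.550), and 2 fell, Cdkn1a and Tob1. Of 16 DNA damage and repair genes 5 rose. Brca1 had 68.9 and 80.7 CPM, against 8.24 and 17.9 CPM (2.86 ± 0.451), Chek1, the kinase of the replication checkpoint, had 24.9 and 40.4 CPM, against 5.93 and 5.10 CPM (2.52 ± 0.595), and Timeless of the fork protection complex, which is on none of the lists, had 28.7 and 26.9 CPM, against 5.93 and 3.83 CPM (2.58 ± 0.609). Of 20 nucleotide synthesis genes 6 rose, including Paics of purine synthesis with 78.4 and 121 CPM, against 28.7 and 40.8 CPM (1.65 ± 0.329). Of 24 ribosome biogenesis genes 4 rose, including Nolc1 with 91.8 and 175 CPM, against 45.5 and 61.2 CPM (1.37 ± 0.289). Without members with under 2 UMIs of the 6 genes per 10000, 25 genes were called in place of 539. Of the tested genes named so far for the parts, Mcm3, Brca1 and Ccnb1 were still called, at 2.17, 2.57 and -3.33, while Dnmt1, Prim2, Cdkn3, Kif20a, Ccne1, Mybl2, Chek1, Timeless, Paics and Nolc1 were not, each with its sign kept.

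Stem cell genes were higher in the S part. Of the 5 crypt marking genes 4 rose and of 22 further crypt stem and Wnt genes 8 rose and none fell. Lgr5, the stem cell receptor for R-spondin, had 53.6 and 80.7 CPM in the S part, against 11.5 and 22.9 CPM in the G2/M part (2.20 ± 0.434, edgeR adjusted p 0.00353). Olfm4 had 2313 and 2361 CPM, against 867 and 1238 CPM (1.31 ± 0.204), Smoc2 had 101 and 256 CPM, against 44.8 and 93.1 CPM (1.44 ± 0.258), and Rnf43, a ligase that removes Wnt receptors, had 107 and 161 CPM, against 48.1 and 75.2 CPM (1.28 ± 0.279). Lgr5 had UMIs in only 7.53% and 8% of cycling barcodes. Without the members with under 2 UMIs of the 6 genes per 10000, Lgr5 was at 2.62, Olfm4 at 0.94, Smoc2 at 1.04 and Rnf43 at 1.27, none of them called in a fit that called 25 genes.

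Absorptive genes were lower in the S part, and most of these calls were lost without the same members. Of 27 enterocyte genes 25 fell. Sis had 28.7 and 20.2 CPM in the S part, against 810 and 789 CPM in the G2/M part (-4.75 ± 0.293, edgeR adjusted p 1.15e-08), Apoc3 had 7.65 and 0 CPM, against 252 and 42.1 CPM (-4.84 ± 0.490), Reg1 had 119 and 20.2 CPM, against 2185 and 2807 CPM (-4.79 ± 0.382), and Papss2, which makes the sulfate donor, had 9.57 and 0 CPM, against 559 and 309 CPM (-5.87 ± 0.403). In the G2/M part, 8 and 3 members had under 2 UMIs of the 6 genes per 10000 and held 37.5% and 20.9% of its UMIs; without such members Sis had 38.2 and 20.2 CPM in the S part, against 119 and 168 CPM, and enterocyte markers summed to 986 and 706 CPM, against 2915 and 1847 CPM. In that fit 3 of 23 enterocyte genes fell, and 15 of all 6060 genes did. By phase scores Sis, Apoc3, Reg1 and Papss2 had the opposite sign. Of 8 Paneth genes 5 rose in the S part, where Paneth markers summed to 173400 and 222 CPM, against 28200 and 386 CPM, and none did without barcodes rich in RNA of other classes. Paneth markers were among those by which such barcodes were left out, so this loss is no separate finding.

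**Figure D5:**
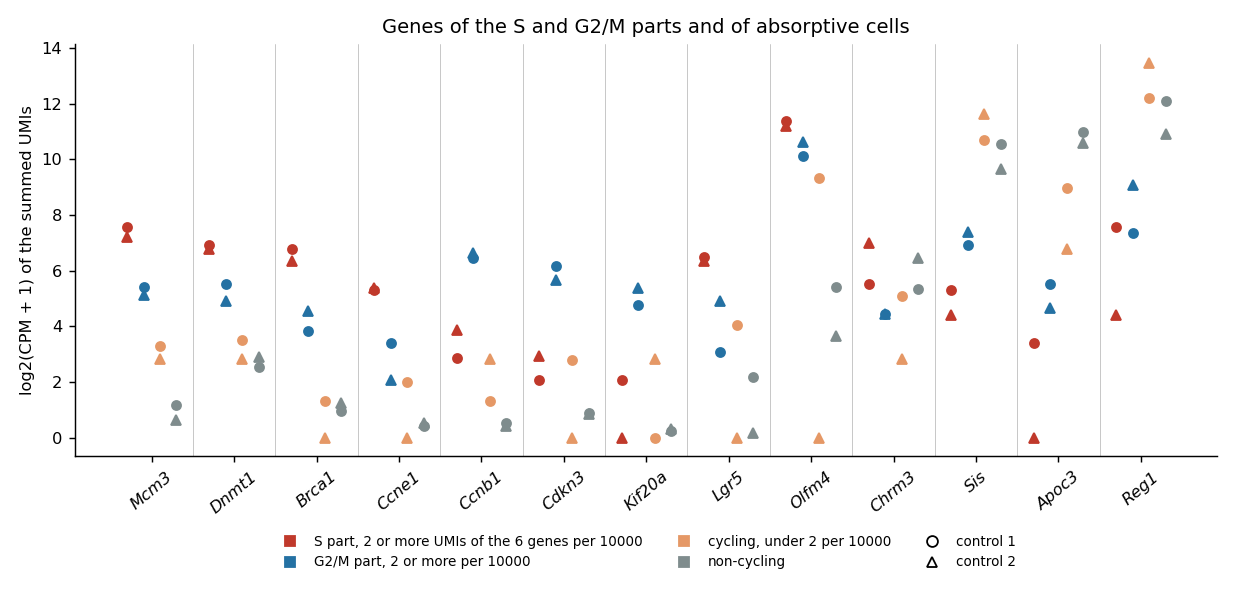
Level of 13 genes as log2(CPM + 1) of the summed UMIs in the S part (red) and the G2/M part (blue) with 2 or more UMIs of the 6 genes per 10000, in cycling barcodes below that rate (orange) and in non-cycling barcodes (grey), for control 1 (circles) and control 2 (triangles). Mcm3 lies highest in the S part and Ccnb1 in the G2/M part, while Sis and Reg1 lie highest in the orange group, at 1661 and 3142 CPM for Sis.

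The receptors of the series were scarce in cycling barcodes. Chrm3, which encodes the M3 receptor, had 97 and 33 UMIs in them, or 27.2 and 35.1 CPM, against 466 and 769 UMIs, or 39.7 and 87.1 CPM, in non-cycling barcodes (-1.20 ± 0.327, edgeR adjusted p 0.00775). The direction depended on which barcodes were kept: without barcodes rich in RNA of other classes in either group the value was 1.13. Between the parts, Chrm3 had 36 and 19 UMIs in the S part, or 68.9 and 128 CPM, against 61 and 14 UMIs, or 20.1 and 17.9 CPM, in the G2/M part (2.33 ± 0.376, edgeR adjusted p 5.22e-04). All 19 of these UMIs in control 2 came from 1 barcode, that of 64489 UMIs, and in control 1 22 of the 36 came from 1 barcode with 48.6% of its UMIs from Paneth markers. Without barcodes rich in RNA of other classes the value was 2.45 and passed, and without members with under 2 UMIs of the 6 genes per 10000 it was 1.81 and did not pass. Chrm1, which encodes the M1 receptor, had 2 UMIs in cycling barcodes of control 1 and 0 in control 2, against 16 and 45 UMIs in non-cycling barcodes, too few for a comparison.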

How the data were processed

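Dissociated cells of 2 control libraries were measured by 10x Genomics 3' single-cell RNA-seq. The deposited files hold UMI counts per gene and barcode as whole numbers, per the file headers from Cell Ranger, with no normalization. The submitters' processing notes name the builds mm10 and GRCm38 beside Cell Ranger in versions 7.1.0 and 6.1. Filters beyond the deposited barcodes were as the report gives them. The members and gene lists were chosen with earlier results of these data known.

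UMI counts were summed per library and barcode group, so each comparison sets 2 sums against 2, since cells are not replicates. The fit was edgeR 4.0.16 in R 4.3.3 (quasi-likelihood, TMM scaling, filterByExpr) with Benjamini-Hochberg adjusted p-values over all tested genes and a threshold of 0.05. Library entered as a block because both groups of a library come from 1 suspension, which leaves 1 residual degree of freedom per gene. Left out of tests were the 6 genes, Epcam, Ptprc and the S and G2/M lists, and the 5 crypt genes in the comparison they defined. CPM values were computed from the deposited counts. Named genes were, per list, up to 3 called genes of largest log2 fold change with a mean of 20 CPM or more in the higher group and the same direction in both libraries, and up to 8 each way outside the lists; of these the text gives a part. Exact (Clopper-Pearson) 95% intervals cover counting error only.

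Scrublet, run through scanpy 1.11.5 (Python 3.11.15), called 0.829% and 0.654% of barcodes doublets; none were removed, and 7 and 3 members lay among the 6% of highest scores. In simulated counts, the fit recovered 94.7%, 86.5% and 75.7% of genes changed by 2 on the log2 scale and 48.3%, 43.8% and 22% of those changed by 1, for cycling against non-cycling (11643 genes), against non-cycling crypt (7498 genes, with 7 false calls) and S against G2/M (6980 genes). The spread of these counts was set and not taken from the data. Changes were placed outside the genes of lowest level, and single barcodes were not simulated. The rates are therefore not the power of the comparisons above. Alternatives covered scaling, DESeq2 1.42.0, filters, depth, thinning, doublet scores, T or NK UMIs and phase scores. Those within depth classes, without barcodes rich in RNA of other classes and without members of low rate were chosen after seeing the data.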

Additional observations from a re-analysis of the deposited data

How the results depend on the processing

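Between cycling and non-cycling epithelial barcodes 4955 genes were called; DESeq2's Wald test called 3028, thinning left 2613, and leaving out barcodes with any T or NK UMI, which kept 1 cycling barcode in control 2, left 167. The other alternatives gave 3394 to 5848, and 3658 with no replicate block. With total UMIs as the scaling, 64.4% of calls were higher, against 49.9%, and the median of all genes was 0.247, against -0.034.

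Against non-cycling crypt barcodes 24 genes were called. The count was 188 with DESeq2 size factors, 89 with DESeq2's Wald test, 266 with no low-count filter, 83 under 10% mitochondrial UMIs, 88 without the highest Scrublet scores, 556 with 6 or more crypt gene UMIs and 401 without members under 2 UMIs of the 6 genes per 10000. It was 14 after thinning, 4 at 3000 to 20000 UMIs, 4 under 20000 UMIs and 2 without barcodes rich in RNA of other classes. edgeR called 0 with no replicate block, 0 at 5 or more UMIs of the 6 genes and 0 at 20000 or more UMIs, with 958, 783 and 914 genes at an unadjusted p under 0.05. With total UMIs the median was 0.343 and 69.0% of 29 calls were higher, against 54.2%.

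Between the S and G2/M parts 539 genes were called. The count was 272 with DESeq2 size factors, 73 with DESeq2's Wald test, 1 with no replicate block, 21 at 3000 to 20000 UMIs, 299 under 10% mitochondrial UMIs, 21 after thinning, 359 at 20000 or more UMIs, 298 without barcodes rich in RNA of other classes, 25 without members under 2 UMIs of the 6 genes per 10000, and 0 by edgeR under 20000 UMIs (98 at an unadjusted p under 0.05). Phase scores called 206, of which 74 were shared and 46 had the same direction. With total UMIs the median was -0.16 and 26.4% of calls were higher, against 40.3%. The cause of these changes was not tested.

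The mean share of cycling barcodes was 5.41%, with 3.64% to 7.19% in single libraries, 2.82% without T or NK UMIs and 12.04% at 20000 or more UMIs. The mean share of the S part was 12.4%, with 10.2% to 14.6% in single libraries, 8.34% without T or NK UMIs, 9.21% after thinning and 31.1% with phase scores.

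Single genes that changed sign were Atoh1 (0.846), Clca1 (0.334) and Chrm3 (1.13) in cycling barcodes without those rich in RNA of other classes. In the S part they were Sis (0.673), Apoc3 (1.29), Reg1 (1.75), Papss2 (0.673) and Gsta1 (1.20) with phase scores, and Clca1 (0.941) under 20000 UMIs. Leaving out barcodes with T or NK UMIs left no barcode in a group of the crypt and part comparisons. With 2 libraries, 1 residual degree of freedom and 5 S barcodes in control 2, the precision of the S comparison is set by few deep barcodes.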

Other observations

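Energy and stress genes were also tested between cycling and non-cycling barcodes, by edgeR's quasi-likelihood test. Over all 11835 tested genes 20.9% rose and 21% fell, and list counts near these shares are not read as results about the list. Of 15 glycolysis genes 1 rose and 3 fell, of 26 nuclear respiratory chain genes 1, Cox7a1, fell, and none of 13 mitochondrially encoded genes was called, while below 20000 UMIs all 13 fell. Of 17 cholesterol synthesis genes 4 rose and 2 fell, among them Idi1, which rose, with 62.9 and 117 CPM in cycling barcodes, against 24.1 and 29.9 CPM in non-cycling ones (log2 fold change 1.37 ± 0.292, edgeR adjusted p 0.00143). Of 16 immediate early and heat shock genes 4 rose and 2 fell.

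In the S part, 11 of 26 respiratory chain genes fell against the G2/M part and none rose, and none of 80 ribosomal protein genes was called. Over all 7003 genes tested 4.6% fell and 3.1% rose. Without members with under 2 UMIs of the 6 genes per 10000, 15 of all 6060 genes fell. Without the library block 1 gene was called in all.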
